A study of Mus musculus with 2 samples.

Results

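Mir143, Mir145a and Mir145b are 3 of the 1973 annotated miRNA genes counted in small RNA libraries of newborn mouse bladder, and the rule that picks them uses their names and no counts, although earlier results of these data were known when it was set. The tissue came from mice of strain B6NCrl at postnatal day 0, and each library was made from the whole bladder of 1 pup. There were 2 libraries in 1 group, pup 2 and pup 1, labelled as pups of the same pregnant mother. No treatment or mutation is given in the labels, and sex was not collected. Sense-strand counts at miRNA genes came to 3636650 in pup 2 and 7460621 in pup 1. Levels are given as counts per 1000000 of these sense-strand counts (CPM). Errors are SDs over the 2 pups, and intervals cover the counting of reads alone, since no molecular identifiers are described.

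MicroRNAs are short RNAs, cut from a hairpin in a longer transcript, that guide repression of messenger RNAs. miR-143 and miR-145 are known as miRNAs of smooth muscle. Serum response factor and its partner myocardin switch on their shared transcript, and the mature miRNAs repress factors such as Klf4 and Klf5 that hold smooth muscle cells in a proliferating, less contractile state. In the bladder, smooth muscle forms the detrusor, the layer that contracts to void urine. The libraries hold miRNA genes and no messenger RNAs of contractile proteins, so the cell type that gave the reads was not measured. In bulk tissue, more cells of a type and more RNA per cell cannot be told apart.

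Mir143 and Mir145a are neighbours, but Mir145b is not part of their cluster. All 3 genes are on the minus strand of chromosome 18. In GRCm38 coordinates, the assembly that mm10 names, Mir143 (ENSMUSG00000065445.2) spans 61649196 to 61649258. Mir145a (ENSMUSG00000065592.1) lies downstream at 61647825 to 61647894, with 1301 bases between the hairpins. Mir145b (ENSMUSG00000098366.1), the gene named as a relative of Mir145a, spans 69022199 to 69022273, which is 7.37 Mb away. In GENCODE M21 no other gene overlaps any of the 3. Its model of Carmn, the long non-coding RNA also called Mir143hg, ends 366 bases before Mir143. The RefSeq model of Carmn, from 61645878 to 61665538, runs through both Mir143 and Mir145a and ends 1947 bases beyond Mir145a. Mir143 and Mir145a are therefore intergenic in the GENCODE annotation and inside the Carmn gene in RefSeq. Bvht, a long non-coding RNA known from heart development in mouse, lies on the other side of Mir145a in GENCODE M21, is transcribed from the opposite strand and ends 352 bases from it. The gene nearest to Mir145b was the long non-coding RNA gene 4930546C10Rik, across a gap of 70670 bases.

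**Figure D1:**
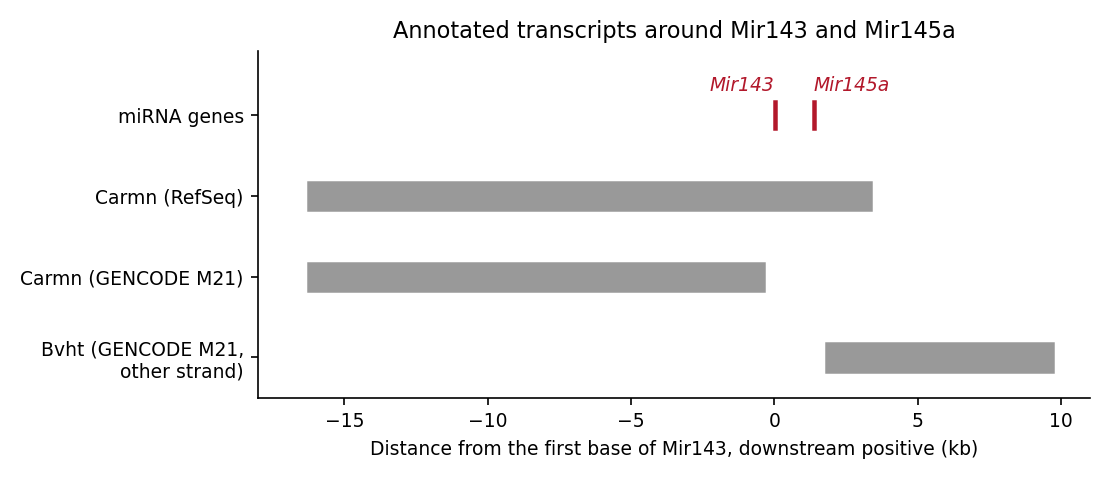
Annotated gene models around Mir143 and Mir145a, drawn by distance in kb from the first base of Mir143 along its own strand, with downstream positive. The RefSeq model of Carmn spans both miRNA genes, while the GENCODE M21 model stops 366 bases before Mir143, and Mir145b lies too far away to be drawn.

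Mir143 was the most abundant miRNA gene in both pups and held over 50% of all counts. It had 1902580 sense-strand counts in pup 2 and 3927655 in pup 1. These counts were 52.3% of all sense-strand gene counts in pup 2, with 95% exact binomial limits of 52.27% and 52.37%, and 52.6% in pup 1, with limits of 52.61% and 52.68%. The level was 523168 CPM in pup 2 and 526452 CPM in pup 1, a mean of 524810 ± 2322 CPM (SD, n = 2). Mir143 alone was 1.10 times the sum of all other genes in pup 2 and 1.11 times in pup 1. The intervals of the pups did not overlap, although the levels lay close together.

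Because Mir143 took so many reads, the rest of the profile rested on 1734070 counts in pup 2 and 3532966 in pup 1. Reads that mapped to several places were listed apart from the genes, at 24.8% of reads in pup 2 and 22.7% in pup 1. If all of those had been counts of other miRNA genes, the share of Mir143 would have been 37.8% in pup 2 and 39.2% in pup 1. Reads here are the gene counts of both strands plus reads that were unmapped, mapped to several places or lay outside genes. Of this total, Mir143 was 33.9% in pup 2 and 34.7% in pup 1.

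Mir145a was abundant too, but far below its neighbour. It had 44084 counts in pup 2 and 88337 in pup 1. That was 12122 CPM in pup 2, with 95% exact binomial limits of 12010 and 12235 CPM, and 11840 CPM in pup 1, with limits of 11763 and 11918 CPM. The pups gave a mean of 11981 ± 199.2 CPM (SD, n = 2). It ranked 13 of 1973 genes in each pup. Among the counts that were not Mir143, Mir145a made up 2.54% in pup 2 and 2.50% in pup 1.

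Mir145b was close to the limit of detection. It had 2 counts in pup 2 and 4 in pup 1, or 0.550 CPM in pup 2, with 95% exact binomial limits of 0.0666 and 1.99 CPM, and 0.536 CPM in pup 1, with limits of 0.146 and 1.37 CPM. With 3 counts taken as the limit that a count of 0 allows, the floor was 0.825 CPM in pup 2 and 0.402 CPM in pup 1. Mir145b did not reach 1 CPM and 3 counts in both libraries, which 335 genes did. The ratio of CPM in pup 2 over pup 1 was 1.03, with an exact 95% counting interval from 0.0928 to 7.16. As few counts as Mir145b, or fewer, were listed for 1586 of the 1973 genes in pup 2 and 1583 in pup 1, and of these 1432 in pup 2 and 1345 in pup 1 were at 0. The letter in its name marks a mature sequence close to that of Mir145a, and whether reads fit both genes was not tested. No count of the 3 genes lay on the opposite strand in either pup. For Mir143 a count of 0 allows an opposite-strand share of up to 0.000158% in pup 2 and 7.64e-05% in pup 1, where over all genes it was 3.18% in pup 2 and 3.17% in pup 1.

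**Figure D2:**
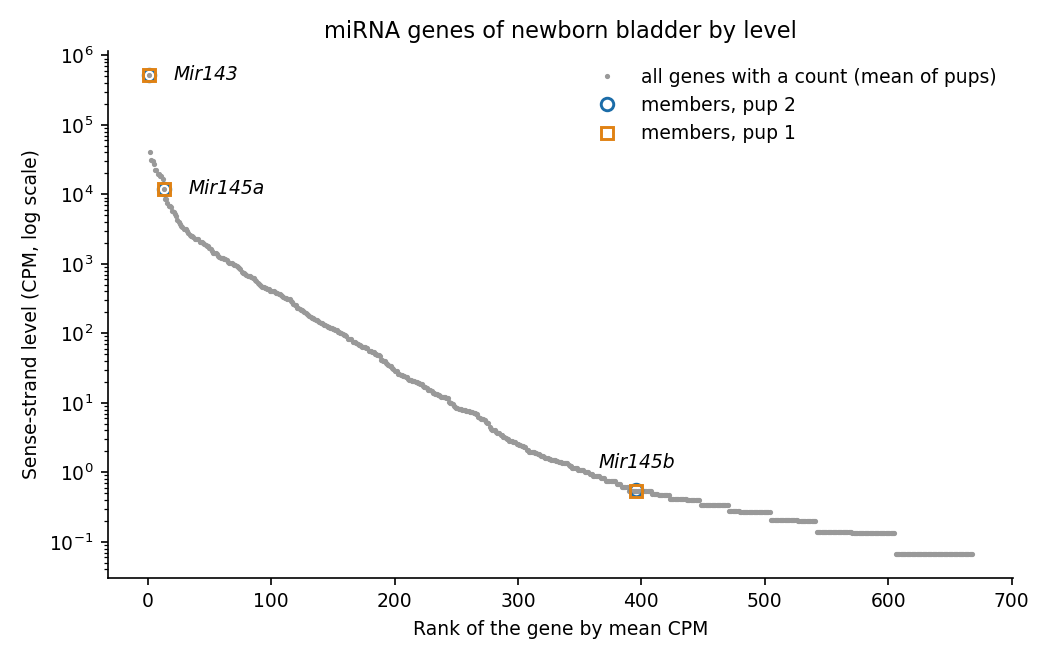
Mean sense-strand level of every miRNA gene with a count, in CPM on a log scale, by rank, with the 3 genes marked by open circles for pup 2 and open squares for pup 1. Mir143 at 524810 CPM stands above Mir99a, the next gene, at 40707 CPM, while Mir145a lies at rank 13 and Mir145b in the tail of genes with a few counts.

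The 3 genes nearest to Mir143 in level were Mir99a, Mir21a and Mirlet7g, by the distance of log2(CPM + 1) over the 2 libraries. Mir99a had 44327 CPM in pup 2 and 37088 CPM in pup 1, so Mir143 was 11.8-fold higher in pup 2 and 14.2-fold higher in pup 1. Mir21a, a miRNA of many cell types, had 31783 CPM in pup 2 and 30637 CPM in pup 1. Mirlet7g, of the let-7 family, had 30261 CPM in pup 2 and 29396 CPM in pup 1. Mir143 therefore stood apart from every other gene as counted, and the gap to the next counted gene far exceeded the difference of the pups. Reads that mapped to several places, 24.8% of reads in pup 2 and 22.7% in pup 1, are left out of these levels. Mirlet7a-1 and Mirlet7c-1, numbered copies whose reads can fit several places, had 113 and 106 CPM on average. How many such reads belong to each gene was not tested, so the gap and the ranks hold for counted reads alone. The genes nearest to Mir145a were Mir335, Mir130a and Mirlet7d. Mir335, in the imprinted gene Mest, had 17161 CPM in pup 2 and 16585 CPM in pup 1. Mir130a had 8768 CPM in pup 2 and 8156 CPM in pup 1, and Mirlet7d had 7851 CPM in pup 2 and 9067 CPM in pup 1. In both pups Mir145a was below Mir335 and above Mir130a and Mirlet7d. With 2 libraries such nearness describes levels only.

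All of these comparison genes matched the RefSeq miRNA table (GRCm38.p6), which gives 2 arms for each. The arms of the 3 runners-up to Mir143 and the matching arm of Mirlet7d are shown to identify what was counted beside it. Capitals mark the seed, bases 2 to 8. The counts are per gene and do not separate the arms. Mirlet7g and Mirlet7d share a seed on their 5p arms, and the 12 arms of the 6 genes carry 11 different seeds.
mmu-miR-99a-5p: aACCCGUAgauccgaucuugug
mmu-miR-99a-3p: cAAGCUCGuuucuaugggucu
mmu-miR-21a-5p: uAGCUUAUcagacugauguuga
mmu-miR-21a-3p: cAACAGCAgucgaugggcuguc
mmu-let-7g-5p: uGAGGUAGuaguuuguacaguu
mmu-let-7g-3p: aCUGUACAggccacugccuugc
mmu-let-7d-5p: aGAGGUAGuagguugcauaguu

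Levels of different genes can also be set per base of the annotated hairpin, which is 63 bases for Mir143, 70 for Mir145a and 75 for Mir145b. Detected genes ran from 51 to 137 bases, with a median of 84. A read covers a mature miRNA and not the hairpin, so CPM is the scale used elsewhere. Per base, Mir143 again ranked 1 and Mir145a 13. Per base Mir143 was 13.3-fold above Mir99a and 24.6-fold above Mir21a and Mirlet7g. Mir145a was below Mir335 in CPM, at a ratio of 0.710, but level with it per base, at 0.994, so that order depends on the scale.

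Mir143 gave about 44 times as many counts as Mir145a, although the RefSeq model of Carmn spans both. The ratio was 43.2 in pup 2, with 95% exact binomial limits of 42.8 and 43.6, and 44.5 in pup 1, with limits of 44.2 and 44.8. The pups gave a mean of 43.8 ± 0.922 (SD, n = 2). Per base of hairpin the ratio was 48.0 in pup 2 and 49.4 in pup 1. Mir145a made up 2.26% of the counts of the pair in pup 2 and 2.20% in pup 1. The ratio is taken inside a library and needs no scaling between libraries. It is a ratio of reads, and how evenly the libraries capture different miRNAs was not measured.

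To place this imbalance, Mir143 and Mir145a were set beside all adjacent miRNA genes on 1 strand with starts within 10 kb and at least 10 counts for each gene in each library. There were 84 such pairs. Pairs in a longer cluster share genes, so they are not independent. Over all pairs the ratio of the higher over the lower gene had a median of 5.23, with quartiles at 2.28 and 28.2 and a range from 1.02 to 511. The pair of Mir143 and Mir145a had a larger ratio than 69 of the others, and 14 pairs were more unequal. A ratio of 10 or more was seen in 33 pairs. The imbalance of Mir143 and Mir145a was thus above the upper quartile of adjacent genes and inside their range.

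The pairs with the highest summed level, after Mir143 and Mir145a, varied among themselves. Mir99a over Mirlet7c-1 was 454 in pup 2 and 324 in pup 1. Mir322 over Mir503, neighbours in a cluster on the X chromosome, was 33.8 in pup 2 and 30.3 in pup 1. For Mir23b over Mir27b the ratio was 7.99 in pup 2 and 8.46 in pup 1. The most unequal pairs besides Mir99a and Mirlet7c-1 were Mir30e over Mir30c-1 at 511 and Mir20a over Mir19a at 147 in mean CPM. Mirlet7c-1 and Mir30c-1 are numbered copies, whose reads can fit several places, and the part of that in their low counts was not tested. With numbered copies left out, an alternative chosen after seeing the data, 8 of 66 pairs were more unequal than Mir143 and Mir145a. Asking for 100 counts in each library left 4 of 56.

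**Figure D3:**
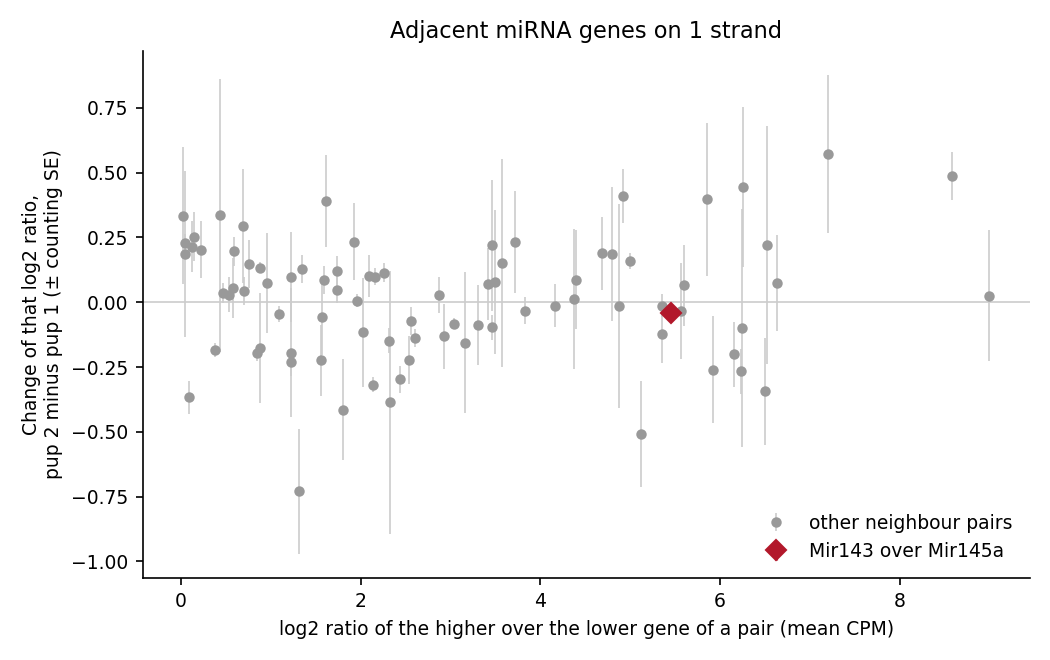
For 84 pairs of adjacent miRNA genes, the log2 ratio of the higher over the lower gene (horizontal axis) and the change of that log2 ratio in pup 2 minus pup 1 (vertical axis), with bars of 1 counting SE. The pair of Mir143 and Mir145a, the red diamond, lies at 5.45 and -0.043, to the right of most pairs and near the line of no change.

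The ratio of Mir143 to Mir145a was nearly the same in the pups. On the log2 scale it was lower in pup 2 than in pup 1 by a change of -0.043 (counting SE 0.0085). Fisher's exact test on the counts gave an adjusted p = 4.4e-06 over the 84 pairs, so the change exceeds counting noise in these libraries. By that test 25% of the pairs were called. In size the change was among the smallest, since 11 of the 84 pairs changed less and the median absolute change was 0.149, with a maximum of 0.729. This pair also had the smallest counting SE. Those of the others ran from 0.021 for Mir23b over Mir27b to 0.526 for Mir547 over Mir201. Its place among the changes therefore compares pairs of unlike depth. The test compares the reads of 2 libraries, not conditions or animals.

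The levels of Mir143 and Mir145a also differed little between the littermates. Scaled by TMM, a method that balances the bulk of genes, Mir143 had a log2 ratio of 0.015 in pup 2 over pup 1 (counting SE 0.0013) and Mir145a 0.058 (counting SE 0.0084). In a two-sided exact binomial test over 362 genes with at least 10 counts summed, both were called, at an adjusted p = 3.27e-30 for Mir143 and adjusted p = 5.86e-11 for Mir145a. The background is high, since 32.3% of all tested genes were called, and at the depth of Mir143 a change of 1.04% passed. Mir145b, with 6 counts in all, was below the minimum and was not tested.

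The direction for Mir143 is not settled by these data. It was higher in pup 2 with TMM, but lower with total counts, at a log2 ratio of -0.0090, and with DESeq2 size factors, at -0.019. TMM over all genes, with no minimum, gave -0.048 for Mir143 and -0.0047 for Mir145a, and this setting was chosen after the data were seen. The split of all called genes moved as well, at 69 higher in pup 2 and 48 in pup 1 with TMM, but 56 in pup 2 and 69 in pup 1 with DESeq2 size factors. With the spread between the libraries taken as edgeR's common dispersion, a biological coefficient of variation of 13.2%, the adjusted p was 1 for both genes in edgeR's exact test. That dispersion was estimated from the same 2 libraries that the test compared, so the test is no independent check. Of the 362 genes, 12 had a smaller absolute log2 ratio than Mir143 and 65 a smaller one than Mir145a, where the median of all was 0.163. Genes with few counts scatter widely, so these places compare genes of unlike depth. Among the 25 most abundant genes the log2 ratio ran from -0.28 for Mir22 to 0.28 for Mir99a, and 21 of the 25 were called.

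**Figure D4:**
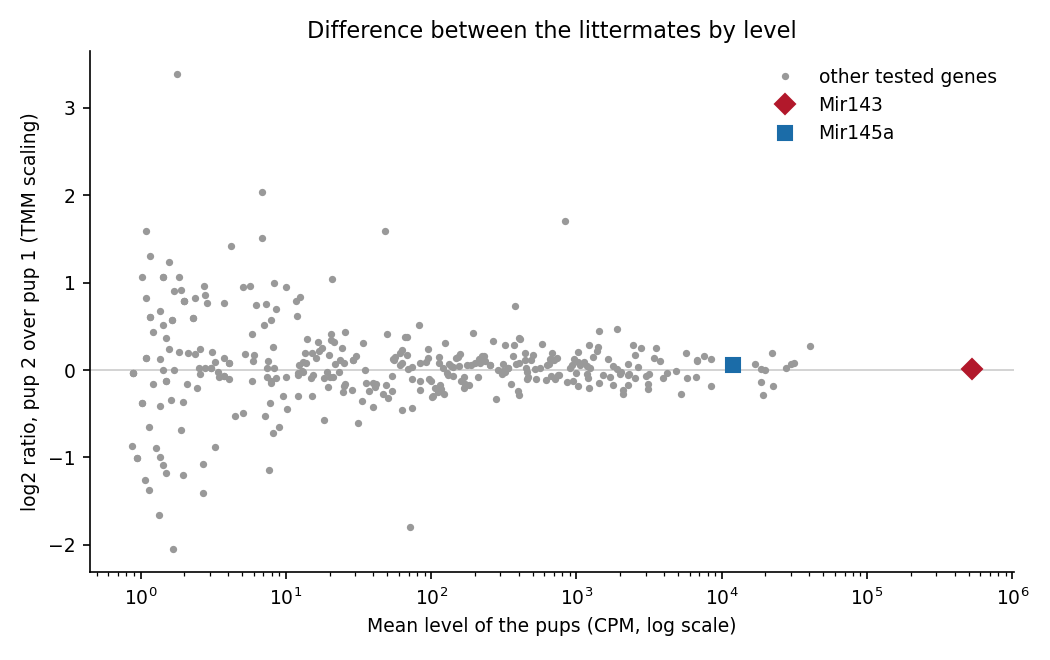
The log2 ratio of pup 2 over pup 1 (TMM scaling) against the mean level in CPM on a log scale for 362 tested genes, with Mir143 as a diamond and Mir145a as a square. Both lie close to 0, at 0.015 and 0.058, while genes with few counts scatter widely.

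Other miRNAs studied in smooth muscle were far less abundant than Mir143, as was every other gene counted. Mir143 was 12.9-fold above the next gene of all, Mir99a, in mean CPM. The list held 18 genes, chosen with earlier results of these data known, and 16 of them were measured here. Mir1a-2 and Mir24-1 were not analysed here. Mir21a, Mir10a, Mir100 and Mir28a had the highest levels. Mir10a, which lies among the Hox genes, had 5976 CPM in pup 2 and 5326 CPM in pup 1. Mir100, of the miR-99 family, had 2668 CPM in pup 2 and 2402 CPM in pup 1. Mir28a, in the gene Lpp, had 1865 CPM in pup 2 and 2287 CPM in pup 1. Of the list, 13 genes were detected, and the 16 together summed to 4.50% of counts in pup 2 and 4.32% in pup 1. Mir143 was 11.6 times that sum in pup 2 and 12.2 times in pup 1, and Mir145a was 0.270 of it in pup 2 and 0.274 in pup 1. Mir21a alone made up 70.7% of the sum in pup 2 and 70.9% in pup 1. Without Mir21a, Mir143 was 39.7 times the sum of the other 15 genes in pup 2 and 41.8 times in pup 1, and Mir145a was 0.919 of it in pup 2 and 0.941 in pup 1. Mir24-2, Mir26a-1 and Mir26a-2, with means of 311.4, 8.15 and 28.9 CPM, are among the numbered copies of the list. Reads that fit several places were not counted in these sums, and the part of that in the ratios was not tested.

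Of the 13 list genes tested between the pups by the exact binomial test, 5 were higher in pup 2 and 1 in pup 1, and 7 were not called. Over all 362 genes, 69 were called higher in pup 2 and 48 in pup 1, or 32.3% in all. At the common dispersion, edgeR's exact test called 0 of the 13 list genes and 5 of the 362. The median log2 ratio of the 13 was 0.18, against 0.034 over all tested genes. The list genes called higher in pup 2 were Mir21a, Mir10a, Mir100, Mir221 and Mir222, of which all but Mir222 were also called higher in pup 2 with total counts, DESeq2 size factors and TMM over all genes. Mir221, known from rat to promote growth of vascular smooth muscle cells, had 293.4 CPM in pup 2 and 236.8 CPM in pup 1. Mir28a was the gene called higher in pup 1, also in those 3 settings. Mir133a-1 had 2 counts in each pup and Mir133a-2 had none, and Mir1a-1 had 1 count in pup 2 and 5 in pup 1. These genes have near-identical copies, and reads that fit several copies were not counted at any of them.

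Set against lists for other cell types, Mir143 was higher than each sum. Mir143 was 1.10 times the sum of all other genes in pup 2 and 1.11 times in pup 1. Its place above the sum was therefore fixed for any list, whatever cell type the list names. The ratio of Mir143 to a list needs no scaling between the libraries. Mir143 was 32.1 times the summed counts of 7 epithelial genes, such as Mir200c and Mir205, in pup 2 and 31.6 times in pup 1. Against Mir126a, the miRNA of endothelial cells, it was 26.6-fold higher in pup 2 and 26.4-fold higher in pup 1. The sum of 6 genes of fibroblasts and mesenchyme, most of it Mir22, was exceeded 24.1-fold in pup 2 and 20.2-fold in pup 1. Without Mir22 it was exceeded 120.3-fold in pup 2 and 113.6-fold in pup 1. This list holds the numbered copies Mir199a-1 and Mir199a-2, whose reads can fit several places, and the part of that in these ratios was not tested. By the exact binomial test between the pups, 1 epithelial gene was called higher in pup 2 and 2 in pup 1, and the mesenchymal genes gave the same counts. These are 3 of 7 and 3 of 6 genes, beside 32.3% of all genes, and none of the 13 was called at the common dispersion. Mir126a was not called with TMM. With DESeq2 size factors the epithelial genes called higher in pup 1 numbered 4, no mesenchymal gene was called higher in pup 2, and Mir126a was called higher in pup 1. The pups stood furthest apart for blood cells, where Mir143 was 222.0 times their sum in pup 2 and 438.3 times in pup 1. Without Mir223, the most abundant of them, it was 483.1 times the sum in pup 2 and 654.1 times in pup 1. The blood cell genes summed to 0.236% of counts in pup 2 and 0.120% in pup 1. Of the 6 tested, Mir223, Mir144 and Mir451a were called higher in pup 2 by the exact binomial test with TMM, total counts and DESeq2 size factors, and none was called higher in pup 1. That is 3 of 6, where 32.3% of all genes were called. At the common dispersion Mir223 was the 1 gene of the list still called. Mir223, a miRNA of myeloid cells, had 1274 CPM in pup 2, against 396.2 CPM in pup 1. The part of blood in the differences between the pups was not tested. Mir142, a leukocyte miRNA of that list, was not analysed here. The 5 skeletal and cardiac muscle genes held 338 counts in pup 2 and 798 in pup 1, so Mir143 was 5629 times that sum in pup 2 and 4922 times in pup 1. By the same test Mir499 was called higher in pup 2 and Mir208b in pup 1, of 4 tested, and at the common dispersion 0 were called. Mir208b, in a cardiac myosin gene, made up most of the sum, with 191 counts in pup 2 and 547 in pup 1. Mir208a had 83 counts in pup 2 and 137 in pup 1, and Mir499 had 37 in pup 2 and 27 in pup 1. The skeletal muscle miRNA Mir206 had 25 counts in pup 2 and 83 in pup 1 and was not called, and Mir133b had 2 counts in pup 2 and 4 in pup 1.

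With every measured gene of a list summed, Mir145a was below the epithelial, mesenchymal and endothelial sums and above the blood and striated muscle sums in both pups. It was 0.744 of the epithelial sum in pup 2 and 0.710 in pup 1, and 0.617 of Mir126a in pup 2 and 0.595 in pup 1. Against the blood cell sum it was 5.14-fold in pup 2 and 9.86-fold in pup 1. The order changed when the most abundant gene of a list was left out. Without Mir429, Mir145a was 1.05 times the epithelial sum in pup 2 and 1.00 times in pup 1. Without Mir22, Mir145a was 2.79 times the mesenchymal sum in pup 2 and 2.55 times in pup 1. Sums of lists are shares of miRNA counts and not shares of cells.

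**Figure D5:**
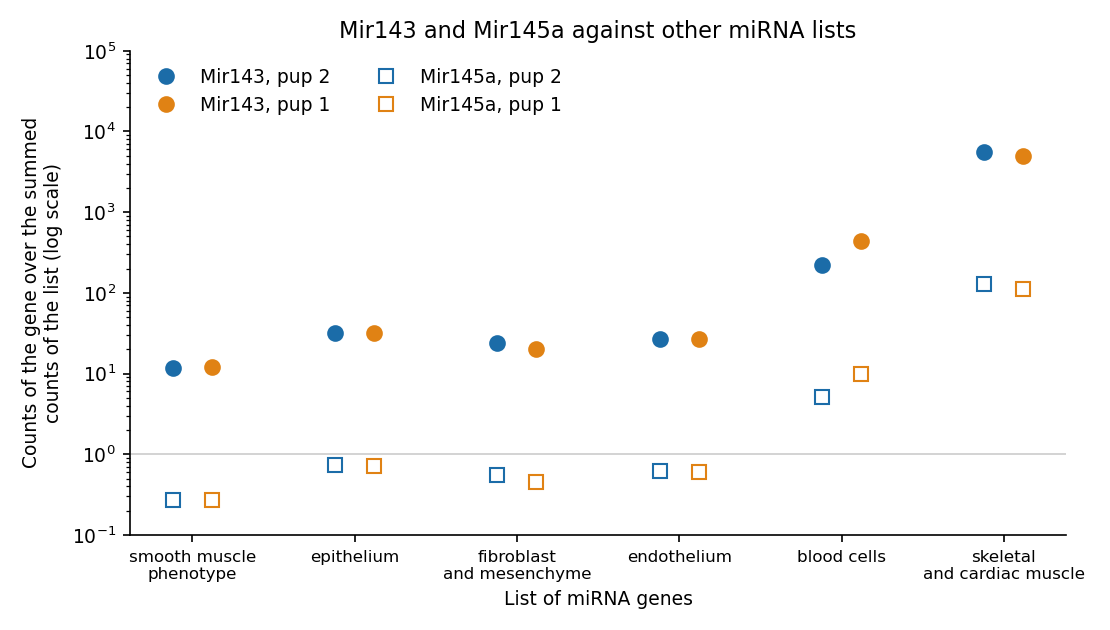
Counts of Mir143 (filled circles) and Mir145a (open squares) over the summed counts of each miRNA list, on a log scale, with pup 2 in blue left of pup 1 in orange. Mir143 lies above 10 for every list, Mir145a lies below 1 for the first 4 lists, and the pups stand furthest apart for blood cells.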

How the data were processed

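Small RNA (size range under 30 nucleotides per the labels) of 2 whole bladders was sequenced. The authors deposited 1 table of raw counts per library, with gene counts on both strands, the sense strand and the opposite strand. The tables have no header, and the strands were read from the values, where the first count column equals the sum of the others for every gene. Per the deposited README text, reads were placed on mm10 with GENCODE M4 genes. Which aligner and counter were used is not given in the sources used. Totals of unassigned reads were left out of library sizes. Symbols and positions came from GENCODE M21 by Ensembl gene number, and 1894 of 1973 IDs matched. The 79 others held 1 sense-strand count in all.

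Pups were compared gene by gene with an exact binomial test (two-sided, conditional on the summed count) and TMM sizes (edgeR 4.0.16, R 4.3.3) computed on the 362 genes with at least 10 counts summed. P-values were adjusted by Benjamini-Hochberg, with a threshold of 0.05. With 1 library per pup no quasi-likelihood fit was possible. Log2 ratios used a prior count of 0.5. Ratios within neighbour pairs were compared by Fisher's exact test. Alternatives included DESeq2 1.42.0 size factors, other scalings, filters, strands and edgeR's exact test. The common dispersion was estimated with the 2 pups taken as replicates of 1 group. The exact test then compared those same libraries, so its calls are no independent check. Calls per list at the common dispersion, and list sums without the most abundant gene, were added after seeing the data. Tables, tests and plots were made in Python 3.11.15 with scipy 1.17.1, pandas 2.3.3, numpy 2.4.6 and matplotlib 3.10.9.

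The named genes were the 3 members, the 3 genes nearest in level to Mir143 and to Mir145a, up to 4 genes per list by mean CPM, and the 3 neighbour pairs with the highest sum and with the largest ratio. Mir221, Mir222, Mir142 and the Mir1a, Mir24, Mir26a, Mir133 and Mir199a genes are further list members named outside this rule. Mirlet7a-1, Mir547, Mir201, Mir187, Mir122 and Mir1b, which are on no list, were also named outside it. The members and lists were chosen with earlier results of these data known. Sequences are RefSeq's, on GRCm38.p6.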

Additional observations from a re-analysis of the deposited data

How the results depend on the processing

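Against a mean of 524810 CPM, Mir143 was at 342998 CPM with the total of reads defined above as the denominator. It was at 508127 CPM in counts of both strands and 385014 CPM with reads mapped to several places added to the totals. The last setting was chosen after seeing the data. In the same 3 settings Mir145a was at 7830, 11600.4 and 8788 CPM, and Mir145b at 0.355, 0.526 and 0.398 CPM. Leaving Mir143 out of the totals gave Mir145a 25213 CPM and Mir145b 1.14 CPM. TMM sizes moved these means by less than the SD. The TMM factors, 0.992 in pup 2 and 1.008 in pup 1, offset each other in a mean of the pups. The mean therefore cannot show how TMM moves single pups. Single pups ran from 523168 to 526452 CPM for Mir143, which with 2 pups says nothing of stability. Mir143 over Mir145a was 48.7 per base of hairpin. The log2 ratio of pup 2 over pup 1 for Mir143 reversed with total counts (-0.0090), DESeq2 size factors (-0.019), totals without Mir143 (-0.019) and TMM over all genes (-0.048). For Mir145a it reversed with TMM over all genes (-0.0047). With the common dispersion neither was called, at ratios of 0.015 and 0.058, and 5 genes were called in place of 117. Called genes were higher in pup 2 in 69 cases and in pup 1 in 48 with TMM, 56 and 69 with DESeq2 size factors, 59 and 64 with total counts, and 49 and 74 with TMM over all genes. The cause of these reversals was not tested. Pairs more unequal than Mir143 and Mir145a numbered 14 of 84 in the settings reported. They numbered 4 of 56 with at least 100 counts and 8 of 66 without numbered copies. With pup 1 left out they numbered 14 of 84, and with pup 2 left out 18 of 92. Leaving out a pup gives no value for the differences between pups. No paired analysis was possible because there is 1 group. Depth limits Mir145b, whose counts lie near the limit that 0 allows.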

Other observations

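Chromosome 18 carries 50 of the measured miRNA genes, and nearly all of its counts came from Mir143 and Mir145a, at 99.98% in pup 2 and 99.96% in pup 1. Mir187 had 227 counts in pup 2 and 641 in pup 1, and Mir122, the main miRNA of hepatocytes, had 115 counts in pup 2 and 834 in pup 1. The rest of the chromosome had at most 11 sense-strand counts per gene in a library. These genes were named after their values were seen. The chromosome also holds Mir133a-1, of the striated muscle miRNAs, beside Mir1b, which is annotated on the other strand. Mir1b had 2 sense-strand counts in pup 2 and 10 in pup 1, and 19 opposite-strand counts in pup 2 and 24 in pup 1. Which gene gave the opposite-strand counts was not tested.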
